A study of Mus musculus with 12 samples.

Results

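Treatment of 4T1 tumours with a PD-1 nanobody alone was compared with a control Fc by bulk RNA-seq of 3 tumour libraries per group. The tumours were grown from 4T1, a BALB/c mammary carcinoma line that here carries mCherry, in the mammary fat pad of female mice of the same strain, 4 to 5 weeks old. Treatment by intraperitoneal injection began 7 days after the cells were injected, with Ctrl-Fc at 5 mg/kg (Ctrl below) or VHH-PD-1-Fc at 2.6 mg/kg (the treated libraries). VHH-PD-1-Fc is a nanobody (the single variable domain of a heavy-chain-only antibody) against PD-1, joined to an antibody Fc. The series holds 12 libraries in 4 groups, and the others are VHH-OD-Fc at 3.5 mg/kg and VHH-OD-PD-1-Fc at 4.3 mg/kg, which carries both binding domains; the labels do not spell out OD. All groups share the tumour line, the host strain and the Fc format. The genes compared were those with at least 1 FPKM (fragments per kilobase of transcript, scaled to library depth) in at least 3 of the 6 Ctrl and VHH-PD-1-Fc libraries, 13156 of the 41009 gene symbols in the table. Whether each library is its own animal is not stated in the labels, and p-values therefore reflect library-to-library spread that may be technical.

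PD-1, encoded by Pdcd1, is an inhibitory receptor that T cells display after activation. Its ligands PD-L1 (Cd274) and PD-L2 (Pdcd1lg2) are induced by interferons on tumour and myeloid cells, and their binding recruits the phosphatase SHP2 (Ptpn11) and dampens signals from the T cell receptor and CD28. Blocking the receptor is known to release T cells that secrete interferon gamma, which in turn drives chemokines such as Cxcl9 and Cxcl10, guanylate-binding proteins and antigen presentation in the cells around them.

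The estimated depth was 50.3 to 51.3 M reads in the Ctrl libraries and 43.9 to 52.0 M reads in the VHH-PD-1-Fc libraries. The FPKM values summed to 330507 to 337816 in Ctrl and to 388142 to 401179 in VHH-PD-1-Fc, without overlap. Of that sum, 9.15% to 10.0% came from 89 ribosomal protein genes in Ctrl and 14.76% to 17.2% in VHH-PD-1-Fc. Across the tested genes, Pearson's r between libraries was 0.963 to 0.987 within Ctrl, 0.954 to 0.963 within VHH-PD-1-Fc and 0.892 to 0.950 between the groups. Ctrl replicate 1 stood apart in immune genes, with Igkc (the kappa light chain of immunoglobulin) at 2540 FPKM where the other controls had 14.3 and 207, and in the epithelial adhesion gene Epcam, at 14.3 against 162 and 98.0. In treated replicate 2, 25553 genes had a value over 0, within the 25258 to 26203 of the Ctrl libraries. Treated replicates 1 and 3 had 30257 and 30973. The labels name no batch, so a batch and the treatment cannot be told apart. The epithelial keratin gene Krt18, a marker of the labelled tumour, stood at 615 to 1360 FPKM in Ctrl and 1100 to 2060 in VHH-PD-1-Fc.

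More genes were lower than higher in the tumours treated with VHH-PD-1-Fc, a balance that turned around under 2 of the 3 other scalings tried. Of the genes tested, 1171 (8.90%) were higher and 2634 (20.0%) were lower at an adjusted p under 0.05, and the median log2 fold change was -0.20. These shares and this median are the background for every gene group below. Whether called or not, 4574 genes (34.8%) had all treated libraries below all Ctrl libraries, and 1984 (15.1%) had all of them above. The share called lower was 77.1% in the list of the type I interferon response, 66.7% in that of interferon gamma, 57.9% among collagen chains and 50.0% among heat shock chaperones and in cholesterol synthesis, and the share called higher was 83.0% among cytosolic ribosomal proteins and 41.7% among nuclear subunits of the respiratory chain. Values rescaled to TPM gave 783 higher and 4828 lower genes with a median of -0.44, median-of-ratios scaling gave 1796 and 1431 with a median of -0.02, and quantile normalization gave 1561 and 1239. Of the single libraries, Ctrl replicate 3 lowered the counts most when left out, to 328 and 384, and Ctrl replicate 1 and treated replicate 2 left out together gave 314 and 461. Of the genes tested, 367 reached 1 FPKM in all 3 Ctrl libraries and in no treated library, and 286 of these were lower; for 175 the reverse held, and 160 of them were higher. Such genes entered the test only through the group where they are high, so their calls follow in part from the filter, and they were not tested when a library of that group was left out.

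**Figure D1:**
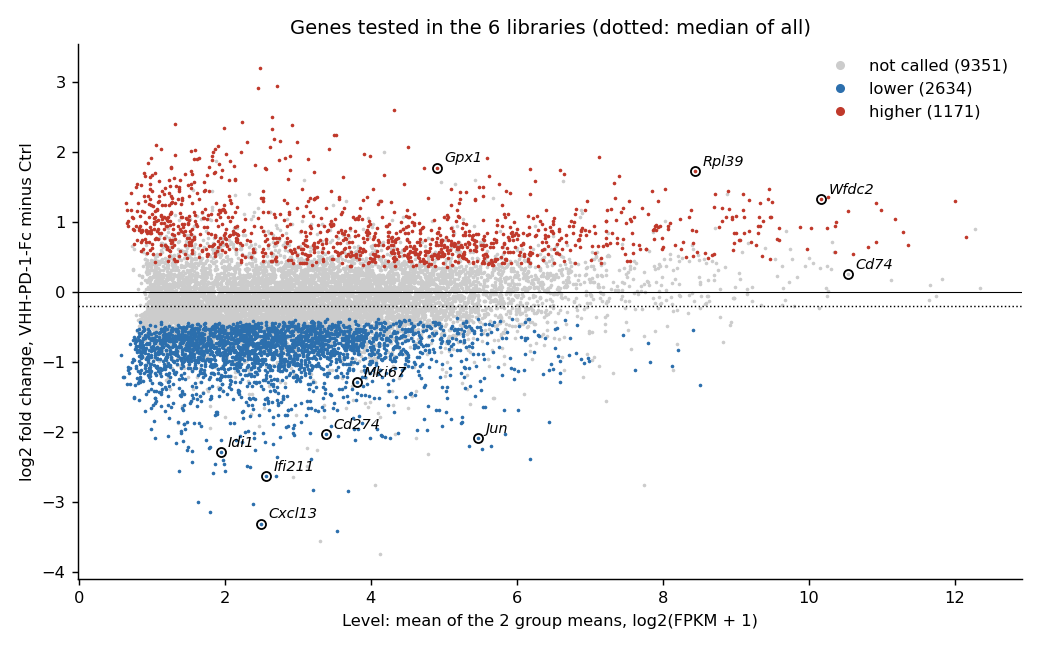
Log2 fold change (VHH-PD-1-Fc minus Ctrl, on log2(FPKM + 1)) against the mean level of each of the 13156 genes tested, 1 point per gene. The 1171 genes called higher are red, the 2634 called lower are blue, the dotted line is the median of all genes at -0.20, and circles mark genes named in the text.

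**Figure D2:**
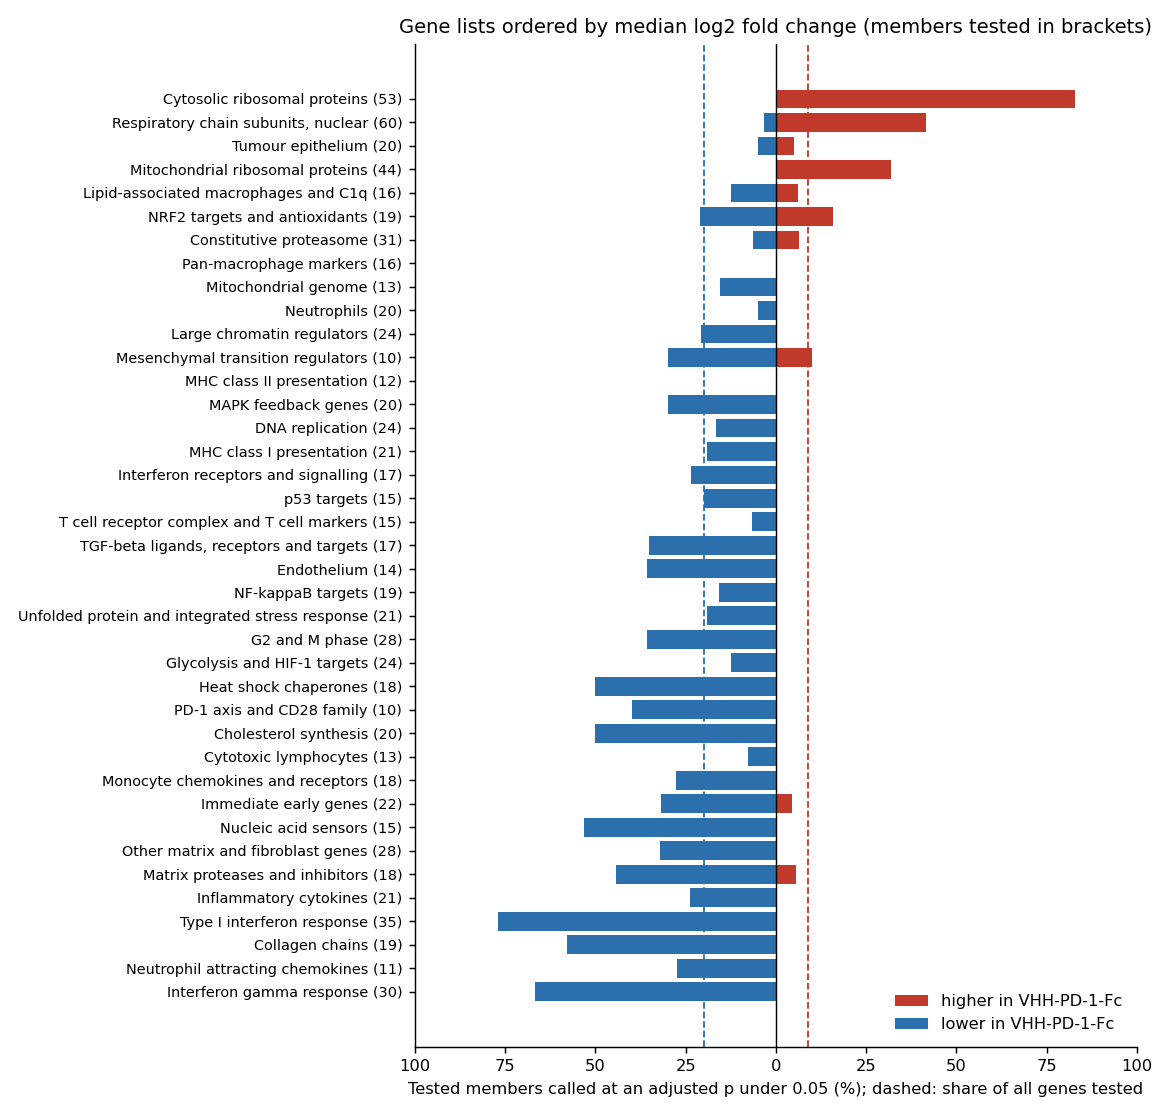
Share of the tested members of each gene list that were called higher (red, to the right) or lower (blue, to the left), for lists with at least 10 members tested. Dashed lines are the shares over all genes tested, 8.90% higher and 20.0% lower, and the lists are ordered by their median log2 fold change.

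The gene of PD-1 did not pass the test, and that of PD-L1 fell. Pdcd1 was at 3.58, 3.96 and 3.38 FPKM in Ctrl and at 4.44, 2.03 and 3.55 in VHH-PD-1-Fc, and its log2 fold change was -0.14 (SE 0.22, adjusted p = 0.67, with 3 libraries in each group here and throughout). The groups overlapped, and treated replicate 2 was the lowest library. Cd274 fell from 24.6, 17.7 and 15.6 FPKM in Ctrl to 6.15, 1.44 and 5.67, which is -2.03 on the log2 scale (SE 0.41, adjusted p = 0.014). All 3 treated libraries were below all 3 controls. Pdcd1lg2 fell from 4.32, 1.38 and 1.93 FPKM to 0.536, 0.292 and 0.631 (log2 fold change -1.17, SE 0.30, adjusted p = 0.026). Cd80, a ligand of CD28 and CTLA-4 that also binds PD-L1, fell by 0.82 on the log2 scale (SE 0.19), and Ptpn11, the phosphatase that PD-1 recruits, fell by 0.47 (SE 0.14). Of 10 members tested in the list of the PD-1 axis and the CD28 family these 4 were lower (40.0%) and 0 were higher. The median was -0.65, and 20.0% of all genes tested were lower. However, 3 of the 10 members passed the filter only through the Ctrl libraries, Pdcd1lg2 and Cd80 among them. With Ctrl replicate 1, 2 or 3 left out, 7 members were tested, without Pdcd1lg2 and Cd80, and 0, 1 and 1 were lower; rescaling to TPM gave 7, and quantile normalization gave 1. Cd274 lost its call without Ctrl replicate 1 (adjusted p = 0.053), Pdcd1lg2 without treated replicate 1 or 2, Cd80 without treated replicate 2, and Ptpn11 without any 1 Ctrl library or treated replicate 2 or 3. Among other inhibitory receptors, 2 of 8 were lower: Havcr2, which encodes TIM-3, at a log2 fold change of -0.65 (SE 0.13), and Lilrb4a, an inhibitory receptor of myeloid cells, at -2.63 (SE 0.38). Havcr2 did not pass without any 1 Ctrl library.

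**Figure D3:**
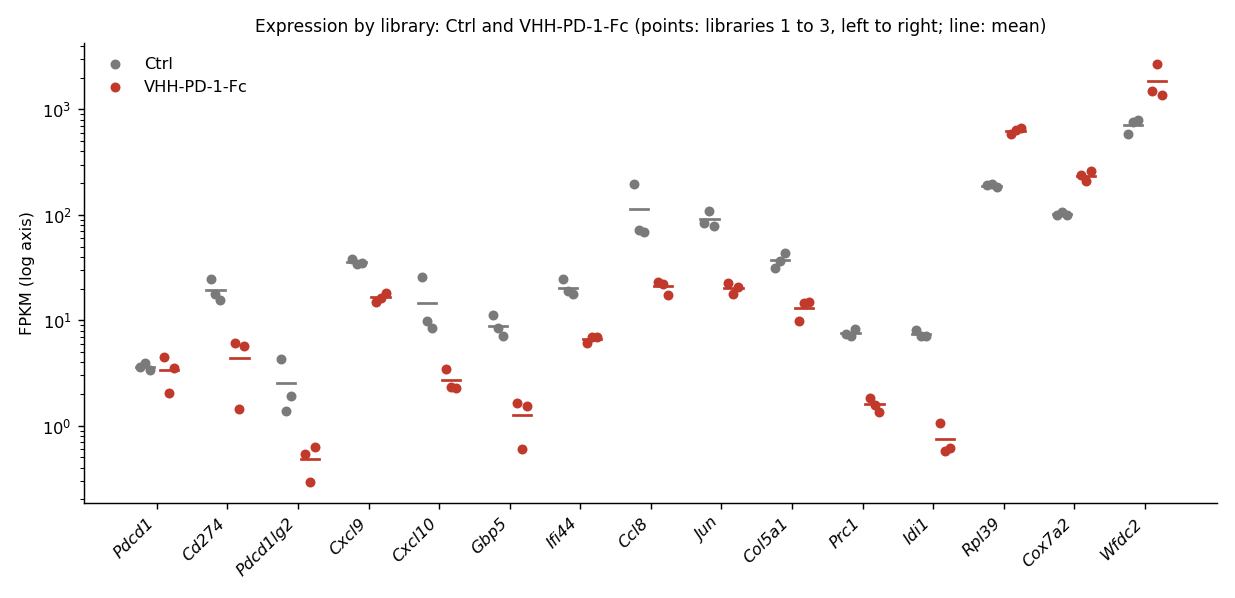
FPKM of 15 named genes (log axis) in each Ctrl library (grey) and each VHH-PD-1-Fc library (red), with the group mean as a line. Pdcd1 overlaps between the groups, 11 genes from Cd274 to Idi1 lie lower in every treated library, and Rpl39, Cox7a2 and Wfdc2 lie higher in every treated library.

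Transcripts that define T cells were low in all 6 libraries. Cd3e, a chain of the T cell receptor complex, was at 1.56, 0.808 and 1.03 FPKM in Ctrl and at 1.32, 0.444 and 1.26 in VHH-PD-1-Fc (log2 fold change -0.10, SE 0.24, adjusted p = 0.76). Cd8a, the coreceptor of cytotoxic T cells, was at 5.92, 3.33 and 4.25 and at 5.01, 1.26 and 2.54 (log2 fold change -0.57, SE 0.36, adjusted p = 0.25). The groups overlapped in both genes. Cd4, Foxp3 and Ifng, which mark helper T cells, regulatory T cells and secreted interferon gamma, stayed below the filter. Ifng was at 1.25, 1.58 and 0.936 FPKM in Ctrl and at 0.321, 0.106 and 0.672 in VHH-PD-1-Fc, and Cd4 at 2.87, 0.477 and 1.46 and at 0.277, 0.176 and 0.120. Foxp3 reached at most 0.628 FPKM, in Ctrl replicate 1. No treated library was above any control in Ifng or Cd4, and neither gene was tested. Of 15 T cell genes tested, 1 was lower, Il7r, the receptor for interleukin 7, which fell from 3.94, 3.35 and 4.57 FPKM to 1.13, 0.246 and 0.788 (log2 fold change -1.55, SE 0.22, adjusted p = 0.0063). This share of 6.67% is under the background share. The median of the list, -0.42, was below the background median, and it was -0.11 without Ctrl replicate 1 and treated replicate 2 together.

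Of 13 genes of cytotoxic lymphocytes, 1 was lower (7.69%, under the background share). The median of -0.66 was below the background median, and it was -0.20 without Ctrl replicate 1. Gzmb, which encodes granzyme B, was at 26.9, 16.2 and 7.15 FPKM in Ctrl and at 3.08, 3.74 and 7.75 in VHH-PD-1-Fc, with a log2 fold change of -1.51 (SE 0.47, adjusted p = 0.048). Its groups overlapped, since the treated replicate 3 was above the control replicate 3, and it passed without Ctrl replicate 3 or treated replicate 3 but not without any other 1 library. Prf1, which encodes perforin, was at 6.56, 3.65 and 2.90 FPKM in Ctrl and at 1.52, 2.80 and 2.31 (adjusted p = 0.091). In bulk tissue, fewer cells of a type and less RNA per cell cannot be told apart. Ptprc, which encodes the pan-leukocyte antigen CD45, fell from 6.62, 3.86 and 5.03 FPKM to 1.28, 1.27 and 1.49 (log2 fold change -1.37, SE 0.19, adjusted p = 0.0062). Markers of B cells and of lymphoid tissue varied widely among the Ctrl libraries. Cxcl13, a chemokine that guides B cells into follicles, fell from 31.0, 6.78 and 15.5 FPKM to 0.304, 0.319 and 1.45 (log2 fold change -3.31, SE 0.50, adjusted p = 0.0072), and Ccl21a, a chemokine of lymphatic vessels and lymph nodes, from 11.5, 3.54 and 32.2 to 0.352, 1.53 and 0 (log2 fold change -3.03, SE 0.69, adjusted p = 0.019). Ighm, the heavy chain of IgM, fell from 79.7, 5.69 and 38.8 FPKM to 2.54, 2.76 and 3.43, and Ltb, which encodes lymphotoxin beta, fell by 1.65 on the log2 scale (SE 0.38). Ccl21a, Ighm and Ltb lost their calls without Ctrl replicate 1, Ctrl replicate 3 or treated replicate 3, Ltb also without replicate 2 of that group and Ighm also without 1 or 2. The 11 genes of lymphoid homing and lymph node stroma summed to 23.2 to 83.5 FPKM in Ctrl and to 6.59 to 10.8 in VHH-PD-1-Fc, and those of plasma cells to 24.3 to 2720 and to 10.7 to 132. The part of these cells in the other falls was not tested.

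Most of the interferon-response genes tested were lower in the treated tumours, and 0 of 65 were called higher (at most 1 of either list under any alternative run). The summed FPKM of the type I list did not separate the groups, at 2040 to 2580 in Ctrl and 2000 to 2130 in VHH-PD-1-Fc. That of the interferon gamma list did, at 1010 to 1130 and 302 to 605. In the list of the type I interferon response 27 of 35 members were lower, with a median log2 fold change of -1.02, and in the list of the interferon gamma response 20 of 30 were lower, with a median of -1.28; the lists share no gene. Ifi44, an interferon-induced protein, fell from 24.5, 19.1 and 17.6 FPKM in Ctrl to 6.04, 6.93 and 6.93 in VHH-PD-1-Fc (log2 fold change -1.48, SE 0.16, adjusted p = 0.0038). Cmpk2, a mitochondrial nucleotide kinase beside Rsad2, fell from 12.2, 6.67 and 8.0 FPKM to 1.90, 1.34 and 1.19 (log2 fold change -1.98, SE 0.23, adjusted p = 0.0044). Neither gene overlapped between the groups, and Ctrl replicate 1 was the highest library in both. Ifit2 and Samd9l, which restrict translation and virus growth, fell by 1.77 (SE 0.24) and 1.56 (SE 0.21) on the log2 scale.

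Guanylate-binding proteins are GTPases that interferon gamma induces and that attack vacuoles of pathogens. Gbp5 fell from 11.3, 8.37 and 7.04 FPKM to 1.63, 0.605 and 1.53 (log2 fold change -2.14, SE 0.25, adjusted p = 0.0044). Gbp9 fell by 1.91 (SE 0.22) and Gbp10 by 2.13 (SE 0.17) on the same scale, and Gbp10 is 1 of 3 lower members of the interferon gamma list that passed the filter only through Ctrl. These genes belong to clusters of near-identical copies, so how reads were divided among them is uncertain. Cxcl9, which attracts T cells through CXCR3, fell from 38.2, 34.2 and 34.6 FPKM to 15.0, 16.4 and 18.3 (log2 fold change -1.06, SE 0.13, adjusted p = 0.0048). Cxcl10, a second ligand of CXCR3, fell from 25.7, 9.81 and 8.52 FPKM to 3.48, 2.32 and 2.29 (log2 fold change -1.94, SE 0.38, adjusted p = 0.013). The spread within each group was small for Cxcl9, whereas Ctrl replicate 1 held most of the spread of Cxcl10. With Ctrl replicate 3 left out, 17 type I and 9 interferon gamma members passed, of 35 and 27 tested. The interferon gamma count was 10 without Ctrl replicate 1 and 10 without Ctrl replicate 2. Without Ctrl replicate 1 and treated replicate 2 together, 16 and 13 passed, and the medians were -0.95 and -1.01.

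Promoters of these genes can be read for the interferon-stimulated response element, a short sequence that is known to drive interferon-induced genes. Its core was taken as TTTC, any 2 bases and TTTC again (GAAA, any 2 bases and GAAA on the other strand; overlapping matches counted) and searched in the 250 bases before each start in RefSeq promoters (GRCm38.p6), which held 9139 of the 13156 genes tested. It occurred in 311 of these, 3.40%. In the type I list 12 of 28 genes with a promoter held it (42.9%), 9 of 21 among those called lower and 3 of 7 among the others, and in the interferon gamma list 11 of 18 held it (61.1%), 8 of 11 among those called lower and 3 of 7 among the others. A match describes letters in the window and shows no binding. The windows of 4 genes of small adjusted p that held a match are shown, 80 bases each on the strand of the gene, with matches in capitals. The match nearest to the start ends 155 bases before the start of Gbp5 (chr3:142496734-142496813, + strand), 29 before that of Gbp3 (chr3:142559964-142560043, + strand), 112 before that of Ifit3 (chr19:34583372-34583451, + strand) and 26 before that of Trim30a (chr7:104465194-104465273, - strand). Gbp3 and Ifit3 each hold 2 matches, and those of Gbp3 overlap.
Gbp5: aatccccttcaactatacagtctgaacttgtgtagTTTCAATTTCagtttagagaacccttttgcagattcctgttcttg
Gbp3: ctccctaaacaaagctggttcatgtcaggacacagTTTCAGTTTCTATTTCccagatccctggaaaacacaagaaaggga
Ifit3: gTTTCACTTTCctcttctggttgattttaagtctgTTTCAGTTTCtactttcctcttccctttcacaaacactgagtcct
Trim30a: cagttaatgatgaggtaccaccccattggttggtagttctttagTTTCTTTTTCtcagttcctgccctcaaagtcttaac
Beside these letters, Gbp3 fell from 54.8, 52.5 and 48.3 FPKM to 12.3, 8.62 and 18.1, Ifit3, whose near-identical copy Ifit3b could share its reads, from 21.8, 14.4 and 15.1 to 4.03, 6.60 and 6.04, and Trim30a from 21.3, 17.0 and 17.1 to 5.40, 5.19 and 9.39. The groups did not overlap in any of the 3 genes.

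Sensors and signal carriers of the same pathway moved less evenly. Of 15 sensors of nucleic acids 8 were lower (53.3%). Among them were Rigi and Ifih1, which detect viral RNA in the cytosol, at log2 fold changes of -1.06 (SE 0.19) and -0.87 (SE 0.16). Without Ctrl replicate 1, 2 or 3 the count was 3, 4 and 2 of 14 tested, since 1 lower member passed the filter only through Ctrl. Of 17 interferon receptors and signalling genes 4 were lower (23.5%, near the background share, with a median of -0.37). Stat2 fell from 34.6, 20.1 and 27.0 FPKM to 10.5, 7.38 and 8.29 (log2 fold change -1.52, SE 0.22, adjusted p = 0.0063), and Irf1 fell by 0.86 (SE 0.23). Irf1 lost its call without any 1 Ctrl library or treated replicate 3, and Ifih1 without Ctrl replicate 3. In antigen presentation by MHC class I, 4 of 21 members were lower (19.0%, near the background): the peptide transporters Tap1 and Tap2, the trimming peptidase Erap1 and the chaperone Pdia3, by 0.72 to 1.03 on the log2 scale. That list had a median of -0.33. With Ctrl replicate 1, 2 or 3 left out, 0, 1 and 0 of its members passed. None of 12 MHC class II genes passed limma's test. Cd74, the invariant chain of class II, was at 1440, 1320 and 1280 FPKM in Ctrl and at 2120, 1240 and 1560 in VHH-PD-1-Fc (adjusted p = 0.38).

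Some chemokines and inflammatory mediators were lower. Of 18 monocyte chemokines and receptors 5 were lower (27.8%, median -0.67) and 0 were higher. Ccl8 fell from 198, 72.4 and 69.0 FPKM in Ctrl to 23.3, 22.3 and 17.5 in VHH-PD-1-Fc (log2 fold change -2.20, SE 0.39, adjusted p = 0.010). Ccl2, the main attractant of CCR2-positive monocytes, fell from 68.5, 27.2 and 17.2 FPKM to 8.06, 5.80 and 7.31 (log2 fold change -2.04, SE 0.44, adjusted p = 0.017), and Ccl7 fell by 2.07 (SE 0.37). Ctrl replicate 1 was the highest library in all 3 genes, and the treated libraries lay close together. Among neutrophil chemokines 3 of 11 were lower (27.3%, median -1.14). Cxcl12, a chemokine of stromal cells, was at 2.75, 2.39 and 2.58 FPKM against 0.102, 0.185 and 0.315 (log2 fold change -1.58, SE 0.14, adjusted p = 0.0029). Its receptor Cxcr4 was at a log2 fold change of -1.78 (SE 0.24), and Ppbp, a platelet chemokine, at -0.90 (SE 0.19). However, Cxcl12 and Ppbp passed the filter only through the Ctrl libraries. With any 1 Ctrl library left out, 9 members were tested, without these, and 1 was lower. Of 21 inflammatory cytokines 5 were lower (23.8%, near the background; median -1.0), among them Ptgs2, which encodes cyclooxygenase 2, at a log2 fold change of -2.05 (SE 0.46), and the cytokine gene Il11 at -1.75 (SE 0.31). Tnf fell from 5.44, 3.40 and 2.38 FPKM to 1.24, 0.700 and 1.42 (log2 fold change -1.13, SE 0.26, adjusted p = 0.021). That list had 1, 1 and 2 lower members without Ctrl replicate 1, 2 or 3, 9 without treated replicate 3, and 9 after rescaling to TPM, and the monocyte list had 3 without Ctrl replicate 3. Ptgs2 lost its call without any 1 Ctrl library, Tnf without Ctrl replicate 1 or 2 or treated replicate 2, and Ccl2 without treated replicate 2. The targets of NF-kappaB had 3 of 19 lower (15.8%), which is under the background share, while their median of -0.53 was below the background median.

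Markers of macrophages and neutrophils mostly did not pass the test. None of 16 pan-macrophage markers passed limma's test at an adjusted p under 0.05, and their median was -0.07, or 0.12 under median-of-ratios scaling. Without treated replicate 2, 3 markers were lower and the median was -0.39, and without treated replicate 1, 1 was higher and the median was 0.17. Lyz2, the lysozyme of myeloid cells, was at 1020, 517 and 491 FPKM in Ctrl and at 509, 1730 and 1040 in VHH-PD-1-Fc (log2 fold change 0.61, SE 0.47, adjusted p = 0.35). Adgre1, which encodes F4/80, was at 12.9, 7.78 and 8.08 FPKM and at 4.26, 8.87 and 3.52 (adjusted p = 0.12). The treated replicate 2 was the highest of its group in both genes. Of 20 neutrophil genes 1 was lower (5.0%, under the background). This was Clec4e, a receptor for damaged cells and mycobacteria, lower by 0.96 (SE 0.23). It lost its call without Ctrl replicate 1 or 2 or treated replicate 2 or 3. Without treated replicate 1 the list had 4 lower members and a median of -0.52, against -0.20 with all libraries, and TPM values gave 5. The 16 pan-macrophage genes summed to 1100 to 1950 FPKM in Ctrl and to 1080 to 2890 in VHH-PD-1-Fc, and the 20 neutrophil genes to 1420 to 2450 and to 1040 to 2650, so both overlapped between the groups.

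Immediate early genes, which growth factors, stress and tissue handling switch on within minutes, had 7 of 22 members lower. This share is 31.8%, 1 member was higher, and the median was -0.85. Jun, a subunit of the AP-1 factor, fell from 84.4, 109 and 78.4 FPKM in Ctrl to 22.6, 17.7 and 20.7 in VHH-PD-1-Fc (log2 fold change -2.09, SE 0.17, adjusted p = 0.0026). Its partner Fos fell from 90.2, 226 and 139 FPKM to 31.4, 9.43 and 59.6 (log2 fold change -2.38, SE 0.62, adjusted p = 0.030). The groups did not overlap in either gene, and Fos varied several-fold within each group. Egr2, Fosl1 and Fosl2 fell by 1.20 (SE 0.19), 1.57 (SE 0.31) and 0.84 (SE 0.18). Leaving out Ctrl replicate 1, 2 or 3 gave 3, 3 and 3 lower members, and TPM values gave 12. Of 20 feedback genes of the MAPK pathway 6 were lower (30.0%), while the median of -0.23 was near the background median. Dusp6, a phosphatase that switches off ERK, fell from 76.1, 91.5 and 90.2 FPKM to 36, 33.0 and 53.9 (log2 fold change -1.08, SE 0.20, adjusted p = 0.011), and Areg, the EGFR ligand amphiregulin, from 22.5, 31.0 and 37.1 to 8.83, 2.49 and 10.1 (log2 fold change -2.08, SE 0.43, adjusted p = 0.015). That count was 4, 1 and 1 without Ctrl replicate 1, 2 or 3. Fos and Fosl2 lost their calls without any 1 Ctrl library, Fos also without treated replicate 1, Areg without Ctrl replicate 2 or 3, and Dusp6 without Ctrl replicate 3.

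Heat shock chaperones, which refold damaged proteins, had 9 of 18 members lower (50.0%, median -0.59) and 0 higher. Hspa1b, an inducible HSP70, fell from 33.3, 55.6 and 32.1 FPKM to 13.8, 8.0 and 6.18 (log2 fold change -2.02, SE 0.31, adjusted p = 0.0075), and its near-identical copy Hspa1a by 1.87 (SE 0.25), so the split of reads between them is uncertain. Hsph1 and Dnaja1, a nucleotide exchange factor and a cochaperone of HSP70, fell by 0.97 (SE 0.16) and 0.88 (SE 0.15). Without Ctrl replicate 1, 2 or 3 the list had 4, 4 and 3 lower members, and Dnaja1 was not called without replicate 3. The list of the unfolded protein and integrated stress response had 4 of 21 lower (19.0%), near the background share. Its median of -0.54 was below the background median.

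Some stromal genes were lower in the treated tumours, collagen chains among them. Of 19 collagen chains 11 were lower (57.9%, median -1.06) and 0 were higher. Col5a1, a fibrillar collagen chain, fell from 31.3, 36.8 and 43.8 FPKM in Ctrl to 9.75, 14.5 and 14.9 in VHH-PD-1-Fc (log2 fold change -1.46, SE 0.20, adjusted p = 0.0062). Col1a1, the most abundant collagen chain of connective tissue, fell from 302, 441 and 447 FPKM to 128, 263 and 195 (log2 fold change -1.06, SE 0.28, adjusted p = 0.031). Ctrl replicate 1 was the lowest control in both genes and still above every treated library. Of the lower chains, 1 passed the filter only through Ctrl. Collagen transcripts are long, with a median of 6119 bases in the list. The count of lower members was 6 with the trend on transcript length removed, 5 after median-of-ratios scaling, 4 without Ctrl replicate 2, 4 without Ctrl replicate 3 and 6 without treated replicate 3. Col1a1 was not called in any of these, nor without treated replicate 1.

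Of 28 other matrix and fibroblast genes 9 were lower (32.1%, median -0.87). Pdgfra, a receptor that marks fibroblasts, fell from 8.5, 6.32 and 6.03 FPKM to 2.33, 2.57 and 2.87 (log2 fold change -1.14, SE 0.16, adjusted p = 0.0063), and Dpt, which encodes dermatopontin, from 13.6, 5.20 and 6.79 to 0.850, 0.891 and 1.46 (log2 fold change -2.12, SE 0.31, adjusted p = 0.0069). Of 18 matrix proteases and inhibitors 8 were lower (44.4%, median -0.94) and 1, Mmp11, was higher. Mmp2, a gelatinase, fell by 1.80 (SE 0.30). Leaving out Ctrl replicate 2 or 3 gave 3 and 3 lower members in the first list, which had 18 in TPM values, and 2 and 2 in the second, which had 3 without treated replicate 2, 5 without replicate 3 of that group and 5 after median-of-ratios scaling. Mmp11 passed without treated replicate 1 but not without any other 1 library. Of 7 genes of pericytes and smooth muscle 1 was lower (14.3%), under the background share, while their median of -0.50 was below the background median. Genes of endothelium had 5 of 14 members lower (35.7%, median -0.49). Pecam1, an adhesion molecule of vessel lining, fell from 7.79, 9.81 and 8.65 FPKM to 3.91, 3.97 and 4.17 (log2 fold change -0.95, SE 0.13, adjusted p = 0.0063), and Kdr, the main receptor for VEGF, fell by 0.85 (SE 0.14); Kdr is 1 of 2 lower members that passed the filter only through Ctrl. The count was 2, 1 and 1 of 12 tested without Ctrl replicate 1, 2 or 3, 9 after rescaling to TPM and 3 after quantile normalization.

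Some genes of the cell cycle and of cholesterol synthesis were lower. Of 28 genes of the G2 and M phases 10 were lower (35.7%, median -0.54) and 0 were higher. Prc1, which bundles microtubules at the midzone of the spindle, fell from 7.35, 7.11 and 8.22 FPKM in Ctrl to 1.85, 1.58 and 1.36 in VHH-PD-1-Fc (log2 fold change -1.72, SE 0.14, adjusted p = 0.0026). Kif20a, a kinesin of the same structure, fell from 11.5, 9.01 and 11.4 FPKM to 3.25, 2.99 and 2.14 (log2 fold change -1.62, SE 0.17, adjusted p = 0.0038). Mki67, which encodes the proliferation marker Ki-67, fell from 24.4, 16.4 and 20.5 FPKM to 5.39, 6.57 and 12.5 (log2 fold change -1.29, SE 0.29, adjusted p = 0.019). The treated replicate 3 was closest to the controls in Mki67. Without it 17 members of the list passed, against 2, 4 and 2 without Ctrl replicate 1, 2 or 3, 4 and 3 without treated replicate 1 or 2, 18 after rescaling to TPM, 5 after median-of-ratios scaling, 4 after quantile normalization and 6 with the length trend removed. Mki67 lost its call without Ctrl replicate 1 or 3 or treated replicate 2. Of 24 genes of DNA replication 4 were lower (16.7%), which is under the background share, with a median of -0.30.

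Of 20 genes of cholesterol synthesis 10 were lower (50.0%, median -0.66) and 0 were higher. Idi1, which isomerises isopentenyl diphosphate, fell from 8.11, 7.16 and 7.17 FPKM to 1.05, 0.582 and 0.618 (log2 fold change -2.29, SE 0.16, adjusted p = 0.0022). All treated libraries were below all controls. The count was 4, 6 and 3 without Ctrl replicate 1, 2 or 3, 2 without Ctrl replicate 1 and treated replicate 2 together and 17 after rescaling to TPM. Among 24 genes of glycolysis and targets of HIF-1, 3 were lower (12.5%), under the background share, while their median of -0.55 was below the background median. Vegfa, the growth factor of vessels, fell from 54.0, 65.7 and 68.8 FPKM to 37.6, 6.22 and 21.1 (log2 fold change -1.79, SE 0.54, adjusted p = 0.044), and its treated libraries differed widely. It lost its call without any 1 Ctrl library or treated replicate 3. Without treated replicate 1 the list had 12 lower members.

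Genes of the ribosome rose. Of 53 cytosolic ribosomal proteins 44 were higher (83.0%, median 0.89) and 0 were lower. Rpl39, a small protein of the large subunit, rose from 191, 196 and 182 FPKM in Ctrl to 585, 642 and 666 in VHH-PD-1-Fc (log2 fold change 1.73, SE 0.12, adjusted p = 0.0022). Rps20 and Rps21 of the small subunit rose by 1.44 (SE 0.13) and 1.40 (SE 0.13) on the log2 scale. Ribosomal protein genes have many processed pseudogenes, to which reads can be assigned in error. Without Ctrl replicate 3 the count was 23, without Ctrl replicate 1 and treated replicate 2 together it was 29, and after quantile normalization it was 20. Of 44 mitochondrial ribosomal proteins 14 were higher (31.8%, median 0.25), with Mrpl54 at 49.7, 49.2 and 45.4 FPKM in Ctrl and at 83.9, 88.9 and 81.6 in VHH-PD-1-Fc (log2 fold change 0.81, SE 0.11, adjusted p = 0.0063). That count was 6, 6 and 3 without Ctrl replicate 1, 2 or 3 and 9 without treated replicate 1, and TPM values gave 7 higher and 3 lower members while median-of-ratios and quantile scaling gave 22 and 22 higher. With the length trend removed it was 9.

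Of 60 nuclear subunits of the respiratory chain 25 were higher (41.7%, median 0.39) and 2 were lower. Cox7a2, a small subunit of cytochrome c oxidase, rose from 100, 106 and 99.1 FPKM to 237, 209 and 258 (log2 fold change 1.19, SE 0.13, adjusted p = 0.0038). Ndufa2, an accessory subunit of complex I, rose from 116, 120 and 107 FPKM to 223, 250 and 296 (log2 fold change 1.15, SE 0.14, adjusted p = 0.0051). The groups were far apart in both genes. The 2 lower members, Ndufs1 and Uqcrc2, encode large core subunits. Among the 13 protein-coding genes of the mitochondrial genome 2 were lower (15.4%, under the background), mt-Nd4l and mt-Nd5, and 0 were higher. Ndufs1 lost its call without Ctrl replicate 1 or 3, Uqcrc2 without any 1 Ctrl library or treated replicate 2 or 3, mt-Nd4l without any 1 of the 6 libraries, and mt-Nd5 without any but treated replicate 3. The count of higher nuclear subunits was 16, 17 and 8 without Ctrl replicate 1, 2 or 3, 11 without Ctrl replicate 1 and treated replicate 2 together, and 15 with the length trend removed.

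The fold changes followed transcript length. Among the 12748 tested genes with a length in GENCODE M21, Spearman's rho between the log2 fold change and the length of the longest transcript was -0.32, across genes, which are not independent replicates. Of 935 genes of 500 to 1000 bases, 30.7% were higher and 10.7% lower, with a median of 0.21. Of 1493 genes over 6000 bases, 1.21% were higher and 32.8% lower, with a median of -0.39. Among protein-coding genes alone the medians in these bins were 0.30 and -0.39. Ribosomal protein transcripts had a median length of 1094 bases and nuclear respiratory chain transcripts of 1186 bases, against 3274 and 3005 bases in the interferon lists. With the trend removed by a smooth curve, 698 genes were higher and 1831 lower over the genes with a length, 35 ribosomal protein genes were higher and 25 type I and 19 interferon gamma genes were lower. RNA integrity values were not used here, so whether RNA quality differed between the groups was not tested.

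**Figure D4:**
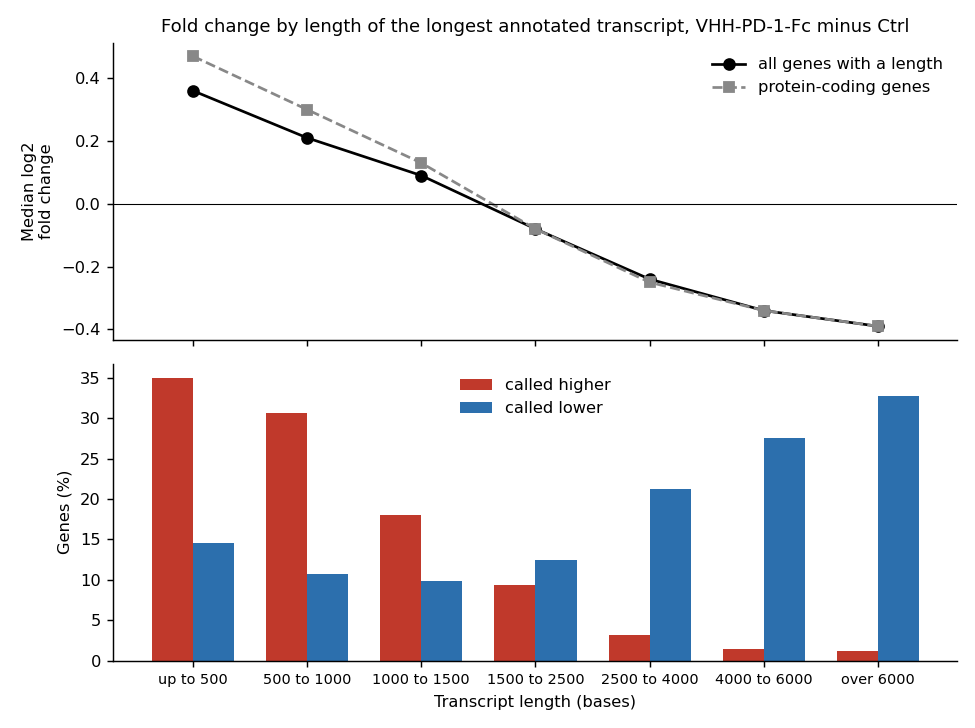
Top, median log2 fold change (VHH-PD-1-Fc minus Ctrl) of all genes with a length (circles) and of protein-coding genes (squares) in bins of transcript length in bases; bottom, share of the genes of each bin called higher (red) or lower (blue). The median runs from 0.36 in the shortest bin to -0.39 in the longest, and the share called higher falls from 35.0% to 1.21%.

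The largest single changes were taken among genes with at least 5 FPKM in the higher group and no overlap between the groups. Of the 12 largest falls, Cxcl13, Ccl21a, Ighm and Lilrb4a are described above. Ifi211, an interferon-activated member of the PYHIN family, fell from 14.4, 14.2 and 12.4 FPKM to 1.86, 1.25 and 1.03 (log2 fold change -2.63, SE 0.17, adjusted p = 0.0022), and Slfn4, an interferon-induced schlafen of myeloid cells, from 50.0, 13.5 and 10.1 to 4.96, 0.677 and 1.28 (log2 fold change -2.83, SE 0.65, adjusted p = 0.020). Of the 12 largest rises, which include Rpl39, Gpx1, the main glutathione peroxidase, went from 14.0, 16.1 and 15.3 FPKM to 41.5, 65.7 and 58.4 (log2 fold change 1.78, SE 0.18, adjusted p = 0.0036). Ramp1, which with a partner forms the receptor for calcitonin gene-related peptide, rose from 9.66, 17.4 and 13.3 FPKM to 39.1, 43.9 and 60.9 (log2 fold change 1.77, SE 0.24, adjusted p = 0.0062). Gcat, a mitochondrial enzyme of threonine breakdown, rose by 1.62 (SE 0.15), Map1lc3a, a light chain of autophagosomes, by 1.51 (SE 0.34), and Ncmap, a myelin-associated protein, by 1.94 (SE 0.35). Slfn4 lost its call without treated replicate 2 or 3, and Map1lc3a without Ctrl replicate 2 or 3. The other 6 rises, Mir1907, Mir3092, Mir763, Mir703, Mir7675 and Ighd3-1, and the other 6 falls, Mir186, Mir1957a, Mir3060, Trbd1, Igkj3 and Igkj4, are models of miRNA hairpins and of receptor gene segments, 12 to 120 bases long, of which Ighd3-1, Mir1957a, Trbd1, Igkj3 and Igkj4 passed the filter through 1 group only. Reads of 150 bp from poly(A) libraries are longer than these models, so the values are uncertain and were not read as changes of the small RNAs or segments.

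Of 20 genes of the tumour epithelium 1 was higher and 1 lower (5.0% each, under the background shares). The median was 0.27, and it was -0.08 without Ctrl replicate 1 and treated replicate 2. Wfdc2, a secreted whey acidic protein of glandular epithelium, rose from 580, 759 and 791 FPKM to 1490, 2720 and 1360 (log2 fold change 1.33, SE 0.28, adjusted p = 0.016), and it lost its call without Ctrl replicate 1 or 3. Epcam was at 14.3, 162 and 98.0 FPKM in Ctrl and at 191, 190 and 70.5 in VHH-PD-1-Fc (log2 fold change 1.13, SE 0.85, adjusted p = 0.34), and the groups overlapped. The 22 genes of the list summed to 2450 to 4140 FPKM in Ctrl and to 3790 to 6300 in VHH-PD-1-Fc, a sum in which abundant genes such as Wfdc2 weigh most. The mean log2 level of the same genes overlapped, at 4.09, 5.10 and 4.87 in Ctrl and 5.10, 4.69 and 4.45 in VHH-PD-1-Fc. The part of the tumour cell content in the falls of stromal and immune genes was not tested.

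The PD-1 nanobody alone was then set against VHH-OD-PD-1-Fc, which adds the OD domain and was given at 4.3 mg/kg against 2.6 mg/kg. Of 12937 genes tested in those 6 libraries, 8 (0.0618%) were higher and 39 (0.301%) were lower in VHH-PD-1-Fc. Libraries of VHH-OD-PD-1-Fc were very alike, with a median SD per gene of 0.0706 on the log2 scale against 0.243 in VHH-PD-1-Fc. Without any 1 of them, or with the 3 averaged into 1 sample, limma called 0 genes in either direction, with 806 to 818 and 189 genes at an unadjusted p under 0.05. Without treated replicate 1, 2 or 3 it called 70, 56 and 52 higher and 200, 125 and 143 lower.

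Among the interferon-response genes, 4 of 35 type I members were lower in VHH-PD-1-Fc than in VHH-OD-PD-1-Fc: Ifi44, Cmpk2, Isg15 and Oas2. Isg15, a ubiquitin-like modifier, was at 97.1, 86.2 and 92.3 FPKM in VHH-OD-PD-1-Fc and at 37.1, 38.6 and 26.6 in VHH-PD-1-Fc (log2 difference -1.42, SE 0.15, adjusted p = 0.020), beside 186, 89.3 and 82.4 in Ctrl. Cxcl10 was at 8.94, 8.97 and 8.89 FPKM against 3.48, 2.32 and 2.29 (log2 difference -1.44, SE 0.15, adjusted p = 0.016). Of the 3 Ctrl libraries 2 were above every VHH-OD-PD-1-Fc library in Cxcl10. Ccl2, Ccl7 and Ccl8 differed in the same direction by 1.23, 1.59 and 1.53 on the log2 scale, and Jun was at 59.2, 56.9 and 55.9 FPKM in VHH-OD-PD-1-Fc against 22.6, 17.7 and 20.7 (log2 difference -1.46, SE 0.11, adjusted p = 0.0066). Ctsk, the collagenase cathepsin K, was at 61.7, 58.1 and 57.6 FPKM against 15.9, 24.6 and 18.7 (log2 difference -1.56, SE 0.16, adjusted p = 0.016), beside 149, 81.8 and 71.3 in Ctrl.

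Higher in VHH-PD-1-Fc than in VHH-OD-PD-1-Fc were Ramp1, at 39.1, 43.9 and 60.9 FPKM against 16.9, 16.1 and 16.1 (log2 difference 1.47, SE 0.17, adjusted p = 0.021), and Spry1, a feedback inhibitor of receptor tyrosine kinases, at 54.1, 53.1 and 34.5 against 13.3, 14.0 and 13.3 (log2 difference 1.70, SE 0.18, adjusted p = 0.018). Spry1 in Ctrl, at 57.2, 43.9 and 24.9 FPKM, overlapped VHH-PD-1-Fc, whereas Ramp1 in Ctrl lay near VHH-OD-PD-1-Fc. Ighm was at 11.3, 12.6 and 10.2 FPKM in VHH-OD-PD-1-Fc and lower in VHH-PD-1-Fc by 1.66 on the log2 scale (SE 0.13, adjusted p = 0.0066). Skeletal muscle genes made up 5 of the 39 lower genes by the list, which had 10 members tested here and 4 against Ctrl. Ckm, the creatine kinase of muscle, was at 5.37, 5.81 and 6.22 FPKM in VHH-OD-PD-1-Fc and at 0.323, 0 and 0.0199 in VHH-PD-1-Fc. It thus passed the filter only through VHH-OD-PD-1-Fc, where it is high. Calls of such genes follow in part from the filter, and how many other muscle genes entered so was not counted. The mean log2 level of the muscle list was 2.51 to 2.53 in VHH-OD-PD-1-Fc, 0.67 to 1.14 in VHH-PD-1-Fc and 0.76 to 3.27 in Ctrl, and its part in the other differences was not tested. No cytosolic ribosomal protein gene, collagen chain or gene of the G2 and M phases passed limma's test in this comparison, with medians of 0.08, -0.16 and -0.33 over the members.

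**Figure D5:**
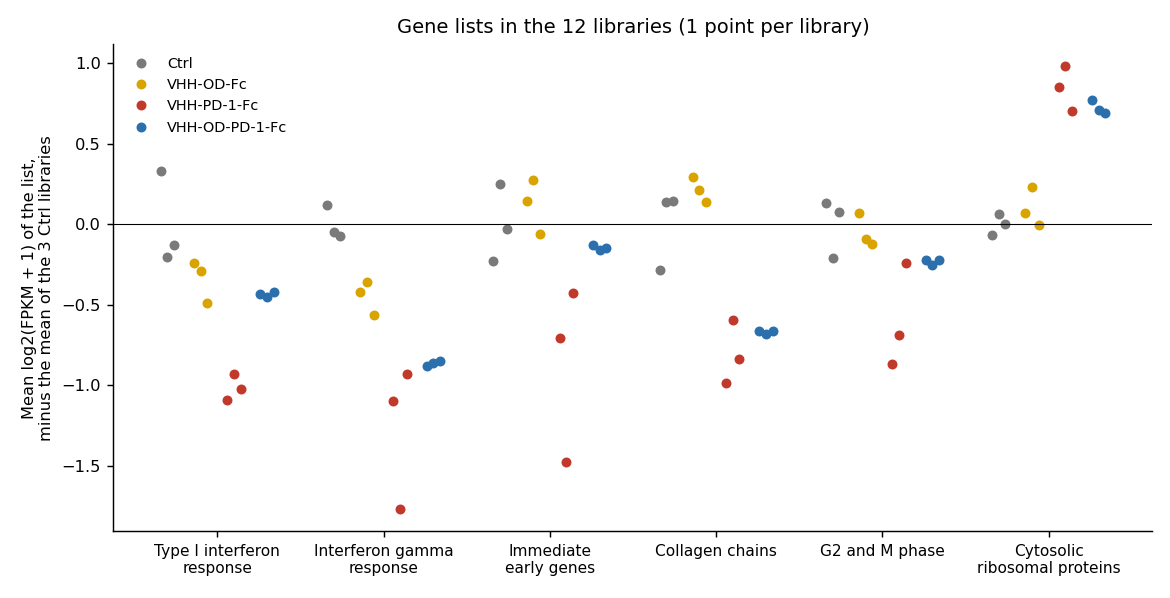
Mean log2(FPKM + 1) of all listed genes in each of the 12 libraries for 6 gene lists, less the mean of the 3 Ctrl libraries; each point is 1 library. The VHH-PD-1-Fc libraries lie below all Ctrl libraries in the type I interferon, interferon gamma, immediate early, collagen and G2 and M phase lists and above them in the ribosomal list, and the VHH-OD-PD-1-Fc libraries are tightly grouped.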

How the data were processed

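The authors deposited FPKM values for 41009 gene symbols in 12 libraries, as 1 table. Per the submitters' processing notes, fastp 0.22.0 and HISAT2 2.2.1 were used, and the only build named is GRCh38, a human build, although the symbols are those of mouse genes. The FPKM tool, its annotation and its strand setting were not given in the sources used here, and the series' design text describes another tumour model and treatment than the sample labels, which were followed. The table holds no raw counts: depth was estimated from the steps between low FPKM values times transcript length (GENCODE M21), which came out whole within 0.05 reads for 95.5% to 96.3% of low values in the 6 libraries compared. Depth limits low genes, and no interval on single values was made.

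Values were tested as log2(FPKM + 1), so folds of low genes are understated. Genes with at least 1 FPKM in at least 3 of 6 libraries were fitted with limma 3.58.1 (variance trend, R 4.3.3), two-sided, with Benjamini-Hochberg adjustment over all genes tested; "higher", "lower", "rose" and "fell" mean an adjusted p under 0.05. Tested on simulated data with 200 changed genes, the fit against Ctrl recovered 50% of log2 changes of 1 and 85% of log2 changes of 2, with 4 false calls, over 13156 genes. The changed genes were far fewer than the 3805 (28.9%) called in the real data, and low genes were not among them. Noise was drawn for each gene alone, without shifts shared within a library. Recovery and false calls in the real data can therefore differ. The members, the comparison and the 53 gene lists were chosen with earlier results of these data known, so list counts are a description. Named genes were the 12 largest changes per direction among called genes with a mean of at least 5 FPKM and no overlap (58 pseudogenes or unnamed models among the rises and 4 among the falls were passed over), up to 4 list members of smallest p, and a fixed set including Pdcd1 and Cd274. Fos, Isg15, Ctsk, Spry1 and other genes outside this rule were chosen after their values were seen. Alternatives covered the pseudocount, the filter, 3 scalings, library weights, transcript length, a replicate block, all 12 libraries, and libraries left out. Some items are not reported here.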

Additional observations from a re-analysis of the deposited data

How the results depend on the processing

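Against Ctrl, the 1171 higher and 2634 lower genes became 1874 and 4483 with all 12 libraries in 1 fit and 1796 and 1431 under median-of-ratios scaling. Removing the length trend gave 698 higher genes. The lower genes numbered 1139 with no filter (37638 genes tested), 1292 with a mean of at least 5 FPKM (7773 tested), 4828 in TPM and 1239 after quantile normalization. Leaving out 1 library gave 328 to 1073 higher and 384 to 2657 lower genes, lowest without Ctrl replicate 3. Leaving out Ctrl replicate 1 and treated replicate 2 together, a choice made after seeing the data, gave 314 and 461. Of the 108 called genes that the text names, 98 to 107 were tested without 1 library, 64 to 97 of them were still called and 0 changed sign.

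Against VHH-OD-PD-1-Fc, the 8 higher and 39 lower genes became 1 and 13 with no filter and 50 and 88 with all 12 libraries. There were 13 higher genes after quantile normalization, and 24 lower with a pseudocount of 0.1 and 20 with a mean of at least 5 FPKM. Leaving out 1 library gave 0 to 70 and 0 to 200. Averaging VHH-OD-PD-1-Fc into 1 sample, also added after seeing the data, gave 0 and 0. The cause of these shifts was not tested, beyond the number of genes or libraries each leaves.

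The labels do not say whether the replicate numbers pair the libraries. Deviations of same-numbered libraries from their group means correlated at -0.06, -0.12 and 0.10 between Ctrl and VHH-PD-1-Fc. Between VHH-OD-PD-1-Fc and VHH-PD-1-Fc they correlated at 0.00, 0.01 and 0.06. Not every library correlated best with its own number. Deviations from a group mean depend on each other, so these values cannot exclude a pairing. With the number as a replicate block, 865 and 1958 genes were called against Ctrl and 2 and 24 against VHH-OD-PD-1-Fc.

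Signs turned for genes that did not pass the test. Pdcd1 was 0.03 under median-of-ratios scaling, 0.16 after quantile normalization and -0.32 to 0.10 with 1 library left out. It was 0.09 without Ctrl replicate 1 and treated replicate 2 together. Cd3e was 0.01, 0.22, -0.22 to 0.12 and 0.26 in the same order, and 0.02 with library weights. Without both libraries Igkc was 0.03 and Epcam -0.12. Cd74 was -0.46 after quantile normalization, and Spry1 against Ctrl was -0.01 in TPM and -0.11 to 0.47 with 1 library left out.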

Other observations

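Processed pseudogenes and small RNA models were among the calls against Ctrl, where 8.90% of all genes tested were higher and 20.0% lower. Of 735 processed pseudogenes tested, 270 were higher and 110 lower, with a median log2 fold change of 0.31. Of 36 snRNA models 16 were higher and 2 lower, of 82 snoRNA models 15 were higher and 30 lower, and of 63 miRNA models 9 were higher and 18 lower. Values of such short models are uncertain, and some, such as Mir1957a, passed the filter through 1 group only, so these counts were not read as changes of small RNAs. Protein-coding genes alone gave 661 higher and 2284 lower of 11069.

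Targets of NRF2 and antioxidant genes held members called in both directions. Of 19 tested, 3 were higher (15.8%, against 8.90% of all genes) and 4 lower (21.1%, near the background), with a median of -0.01. The peroxidases and peroxiredoxin Gpx1, Gpx4 and Prdx2 were higher. Nqo1, Hmox1, Gclm and Txnrd1, which detoxify quinones, degrade haem, make glutathione and reduce thioredoxin, were lower. Leaving out Ctrl replicate 1, 2 or 3 gave 0, 0 and 0 lower members and 4, 3 and 3 higher ones.

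In the table, 1809 genes were listed at 0 in all 3 Ctrl libraries and above 0 in all 3 VHH-PD-1-Fc libraries, with a median mean level of 0.116 FPKM, and 421 genes showed the reverse. Of these, 10 and 11 passed the filter.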
